A study of Mus musculus with 18 samples.

Results

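Semaphorins, ephrins, slits and netrins are guidance cues, and plexins, Eph receptors, Robos and UNC5 proteins are the receptors that read them. Genes were taken by symbol: names that begin with SEMA, PLXN, EFN, EPH, SLIT, ROBO, NTN or UNC5 and the family's number or letter were found on 157 probes for 68 symbols. A gene was kept if at least 1 of its probes was detected, with a detection p under 0.05 against the array's negative control beads, on at least 3 of the 18 arrays. This left 75 probes for 45 genes, of 22987 probes and 16446 genes that passed the same filter over the whole array. The 45 genes are 14 of 19 semaphorins, 4 of 9 plexins, 6 of 8 ephrins, 10 of 14 Eph receptors, 6 of 7 Slits and Robos and 5 of 11 netrin and UNC5 symbols, and the brightest probe stood for each gene. EFNB3 and ROBO3 passed with the fewest arrays, 3 each. PLXNC1, SEMA3C, SEMA6D and UNC5A, detected on 2 arrays at most, fell just short. The other symbols left out were EFNA2, EFNA3, EPHA5, EPHA8, EPHA10, EPHB6, NTNG2, PLXNA1, PLXNA3, PLXNA4, PLXNB3, SEMA3G, SEMA4C, SEMA4G, SLIT1, UNC50, UNC5CL, UNC5D and UNC5H3. UNC5H3 is an older name of UNC5C, and UNC50 shares the letters but is no netrin receptor. No probe carried the symbol NTN1, so that gene was not analysed here.

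Levels come from 1-colour Illumina bead arrays of cultures collected on day 3 in serum-free medium. The 6 groups held 3 replicates apiece. Those named ES/PA6 are mouse embryonic stem (ES) cells grown on a layer of PA6, a bone marrow stromal line, and PA6 groups are the stromal line alone. Each culture was kept without growth factors (-GFs), with recombinant FGF2 at 20 ng/ml or with recombinant BMP4 at 10 ng/ml. Per the study's methods the ES cells carry EGFP knocked in at the τ locus, so that every ES/PA6 group shares this allele. Those methods describe no separation of the ES and stromal cells of a co-culture before RNA was isolated. The comparisons ask which guidance genes differ between the co-culture and its stroma, and which respond to FGF2 or BMP4 in each. Bulk RNA does not tell apart fewer cells of a type and less RNA per cell.

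Semaphorins signal mainly through plexins, with neuropilins as co-receptors for the secreted class 3 members. Ephrins are tethered to the membrane and bind Eph receptor tyrosine kinases on a neighbouring cell, A-type ephrins mostly EphA and B-type ephrins mostly EphB receptors, and the signal runs into both cells. Slits are secreted ligands of Robos, and netrins act through DCC and UNC5 receptors. These systems steer growing axons, and in vessels they shape sprouting and the boundary between arteries and veins.

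Calls of higher or lower needed an adjusted p under 0.1 in limma together with a change of more than 1 log2 unit, and rose and fell are used of such calls. Levels are normalized log2 intensities, and differences are log2 fold changes with their standard error (SE). For a gene that none of a group's arrays detected, the fold is a lower bound, written as at least N-fold. The adjusted p and any call given beside a bound belong to the fitted log2 difference. No test was run on the bound itself, which can lie under 2-fold for a called gene. Between 17125 and 20412 probes were detected per array, and arrays of a group correlated with r from 0.981 to 0.992 over the tested genes. The summed level of 4 pluripotent cell markers ran from 15900 to 36800 (linear scale) on the ES/PA6 arrays and from 229 to 336 on the PA6 arrays, and 5 stromal markers summed to 7970 to 17800 and 22800 to 41500, so the labels of the 2 culture types were borne out by their markers. Markers of neural cells differed between replicates of a group. Summed over 3 genes they ran from 320 to 2410 in ES/PA6 -GFs, from 230 to 1760 in ES/PA6 FGF2, from 183 to 344 in ES/PA6 BMP4 and from 104 to 135 on all PA6 arrays.

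Culture type moved more guidance genes than either growth factor did. Without growth factors 27 of the 45 genes (60%) differed between ES/PA6 and PA6, against 39% of the 16446 genes tested. Of them 11 were higher in the co-culture, where 19.4% of all genes were, and 16 were lower, where 19.5% were. The median difference of the 45 genes was -0.24 beside -0.11 over all genes. FGF2 changed 3 guidance genes in ES/PA6 (3.34% of all genes) and 5 in PA6 (5.27%), and BMP4 changed 1 (0.76%) and 0 (1.41%). Culture type likewise gave the most calls over all genes, 6408. FGF2 gave 550 in ES/PA6 and 867 in PA6, and BMP4 gave 125 and 232.

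**Figure D1:**
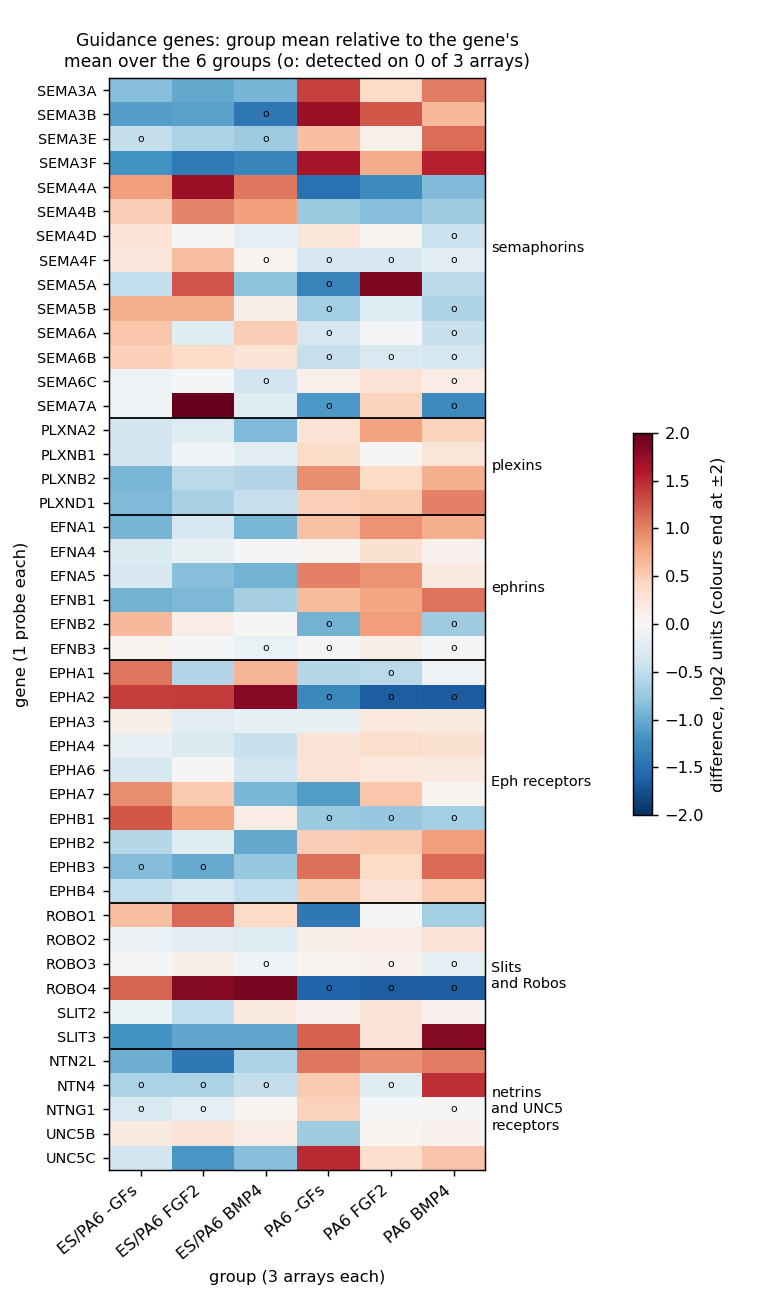
Colour gives each group's mean level (3 arrays) minus the gene's mean over the 6 groups, in log2 units and cut off at 2 either way, for 45 guidance genes in 6 families; o marks a group in which the gene was detected on 0 of 3 arrays. SEMA3A, SEMA3B, SEMA3F and SLIT3 are high on the PA6 side, EPHA2 and ROBO4 on the ES/PA6 side, and SEMA7A and SEMA5A are high with FGF2 on both sides.

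The growth factor effects were set against -GFs within a culture type, so the FGF2 and the BMP4 comparisons of a culture type share their -GFs arrays. In ES/PA6, FGF2 raised SEMA7A and SEMA5A (2 of 45 genes, 2.14% of all genes) and lowered EPHA1 (1 of 45, 1.2%), which makes 3 of 45 against 3.34%. BMP4 there raised 0 (0.31%) and lowered EPHA7 alone (1 of 45, 0.45%, or 0.76% in either direction). In PA6, FGF2 raised SEMA5A, EFNB2, EPHA7, SEMA7A and ROBO1 (5 of 45, 2.71%) and lowered 0 (2.56%), against 5.27% in either direction. BMP4 in PA6 gave no limma call among the 45 genes (0.839% higher, 0.572% lower and 1.41% of all genes in either direction), with 12 of 45 at an unadjusted p under 0.05, where 2078 of all 16446 genes were.

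The direct comparison of FGF2 with BMP4 gave 4 genes in ES/PA6 (2.85% of all genes). SEMA7A, SEMA5A and EPHA7 were higher with FGF2 (1.82%) and EPHA1 was lower (1.03%). In PA6 it gave 6 (5.82%), with SEMA5A, SEMA7A and EFNB2 higher with FGF2 (2.88%) and NTN4, SLIT3 and SEMA3E lower (2.94%). The FGF2 effect differed between ES/PA6 and PA6 for 6 genes (7.39%). It was smaller or more negative in ES/PA6 for EFNB2, EPHA7, EPHA1, SEMA5A and SEMA6A (3.4%) and larger for SLIT3 (3.99%). The BMP4 effect differed for EPHA7 alone (0.559%), where it was more negative in ES/PA6 (0.31%), and for 0 genes the other way (0.249%). Median changes of the 45 genes lay between -0.11 and 0.11 in these 8 comparisons, and those of all genes between -0.01 and 0.01.

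**Figure D2:**
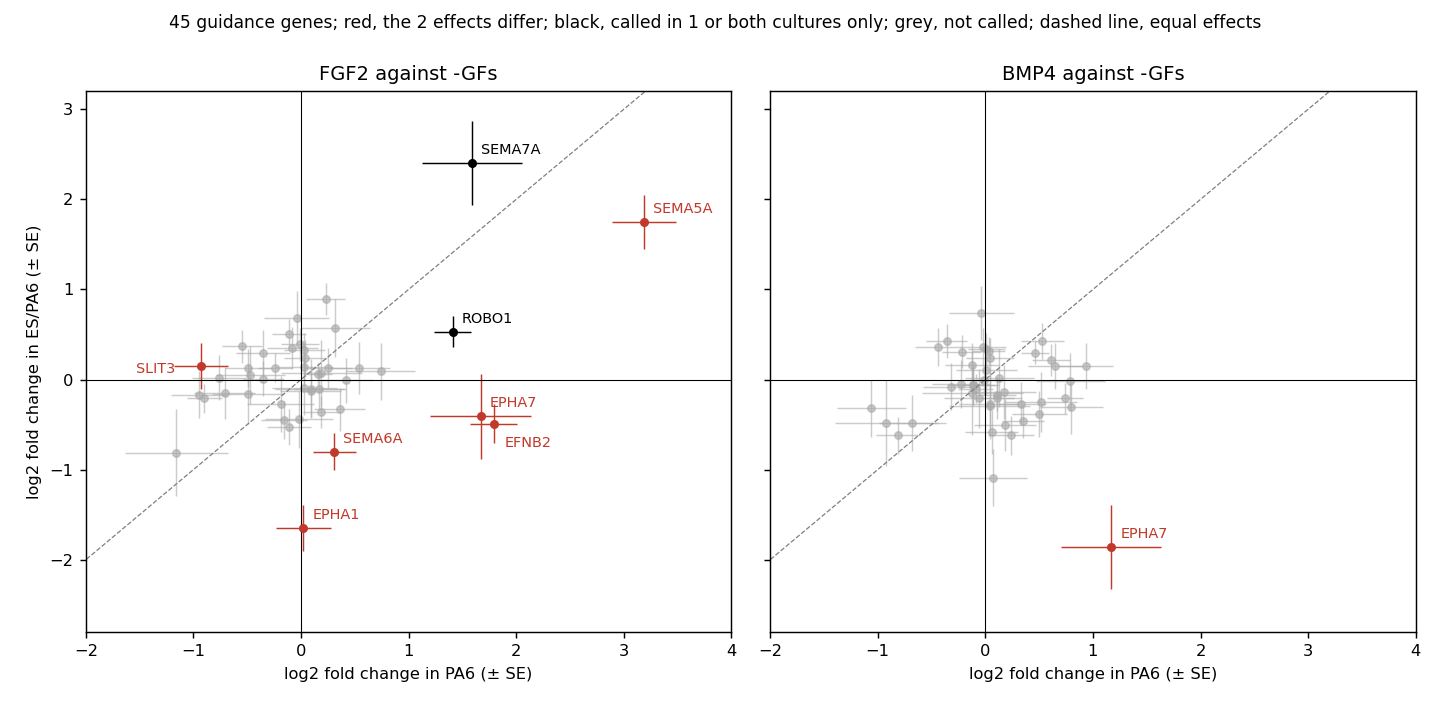
Each point is 1 of 45 guidance genes, with its log2 fold change against -GFs in PA6 on the x axis and in ES/PA6 on the y axis (bars, SE); the left panel shows FGF2, the right panel BMP4, and the dashed line marks equal effects. SEMA7A and SEMA5A lie in the upper right with FGF2, EFNB2 and EPHA7 rise on the PA6 axis alone, and EPHA7 stands apart with BMP4 at 1.17 in PA6 and -1.86 in ES/PA6.

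SEMA7A, a semaphorin held in the membrane by a lipid anchor, which binds integrins and plexin C1, was the guidance gene with the largest FGF2 change in ES/PA6. Its level was 6.72, 6.23 and 6.28 in ES/PA6 -GFs, 9.63, 9.29 and 7.51 with FGF2 and 6.29, 6.39 and 6.09 with BMP4. All 3 FGF2 arrays lay above all others, with replicate 3 the lowest of them. FGF2 raised it by 2.40 ± 0.468 (SE) on the log2 scale against -GFs (adjusted p = 0.00509) and by 2.55 ± 0.468 against BMP4 (adjusted p = 0.00433). The BMP4 change was -0.15 ± 0.468 (adjusted p = 0.969). The summed pluripotent markers moved in the same comparison, from 15900 to 24000 without growth factors to 30800 to 36800 with FGF2. Of the 4 markers 2 were called higher, NANOG (1.25) and ZFP42 (1.19). SOX2 (0.45, adjusted p = 0.243) and POU5F1 (-0.10, adjusted p = 0.831) were not. With BMP4 in ES/PA6 the 4 markers summed to 23500 to 30500, and 0 of them were called against -GFs. The part of these markers in the SEMA7A values was not tested.

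In PA6 the SEMA7A probe was detected on 0 of 3 -GFs arrays, which read 5.21, 5.50 and 5.35. With FGF2 the arrays read 5.84, 7.76 and 7.21, and 2 of the 3 were detected. With BMP4 they read 5.09, 4.96 and 5.64, again on 0 of 3. The FGF2 arrays lay above both other groups, which overlapped. SEMA7A was at least 1.56-fold higher with FGF2 than without growth factors (adjusted p = 0.0313) and at least 1.68-fold higher than with BMP4 (adjusted p = 0.0205). Without PA6 FGF2 replicate 2 both calls were lost, with log2 differences of 1.17 (adjusted p = 0.166) and 1.30 (adjusted p = 0.115). The FGF2 effects in the 2 culture types differed by 0.81 ± 0.662 (adjusted p = 0.51), which was not past the threshold but became 1.46 (adjusted p = 0.094) without ES/PA6 FGF2 replicate 3. Without growth factors SEMA7A was at least 1.08-fold higher in ES/PA6 than in PA6 (adjusted p = 0.0568), a call that was lost without ES/PA6 -GFs replicate 1 (adjusted p = 0.153), PA6 -GFs replicate 1 (0.124) or PA6 -GFs replicate 3 (0.102). Of its receptors, PLXNC1 was not detected on enough arrays to be tested. The integrin subunit ITGA1 fell in PA6 with FGF2 (-1.68 ± 0.343, adjusted p = 0.00307), while the subunit ITGB1 had means of 9.93 in PA6 -GFs and 9.95 with FGF2. Neither subunit was called for FGF2 against -GFs in ES/PA6.

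**Figure D3:**
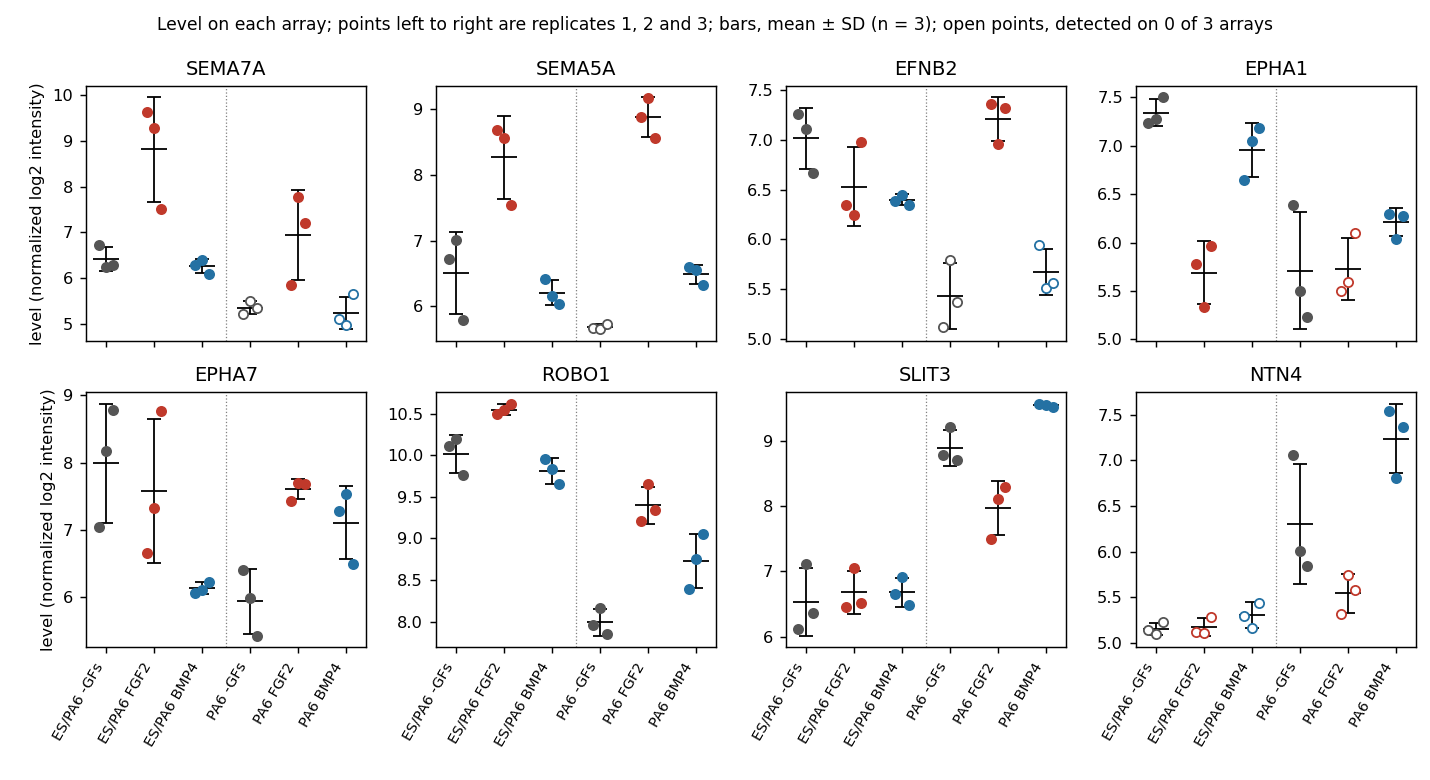
Points are the normalized log2 intensity of 8 guidance genes on each array, in the order of replicates 1, 2 and 3 within a group, with the mean and SD (n = 3) as black bars and open points where the gene was detected on 0 of 3 arrays; each panel has its own y axis, which does not start at 0. The FGF2 arrays (red) stand above the other groups of their culture type for SEMA7A and SEMA5A, and the EPHA7 values of ES/PA6 -GFs run from 7.04 to 8.78.

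SEMA5A, a transmembrane semaphorin with thrombospondin repeats, rose with FGF2 in both culture types. In ES/PA6 it read 6.73, 7.01 and 5.80 without growth factors, 8.69, 8.57 and 7.54 with FGF2 and 6.42, 6.16 and 6.04 with BMP4. In PA6 it read 5.67, 5.66 and 5.74 without growth factors (0 of 3 detected), 8.89, 9.18 and 8.57 with FGF2 and 6.60, 6.55 and 6.33 with BMP4. In each culture type the FGF2 arrays were apart from the rest. The rise in ES/PA6 was 1.75 ± 0.296 (adjusted p = 0.00164) against -GFs and 2.06 ± 0.296 (adjusted p = 0.000637) against BMP4. In PA6, SEMA5A was at least 5.97-fold higher with FGF2 than without growth factors (adjusted p = 2.2e-06) and higher by 2.38 ± 0.296 on the log2 scale than with BMP4 (adjusted p = 3.14e-05). The BMP4 arrays of PA6 were at least 1.14-fold above -GFs (adjusted p = 0.218), without overlap but not past the threshold. The FGF2 effect was smaller in ES/PA6 than in PA6, with a difference of -1.43 ± 0.418 (adjusted p = 0.0395), where the PA6 side rests on a -GFs group with no detected array. Without growth factors SEMA5A was at least 1.16-fold higher in ES/PA6 (adjusted p = 0.0215), a fitted 0.82 that became 1.18 and was called without ES/PA6 -GFs replicate 3.

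The 4 SEMA5A probes did not move together. A second probe rose with FGF2 by 1.40 in ES/PA6 (adjusted p = 0.0282) and by 2.30 in PA6 (adjusted p = 0.000308). The other two gave 0.27 and -0.53 in ES/PA6 (adjusted p = 0.722 and 0.219) and 0.28 and 0.04 in PA6 (adjusted p = 0.62 and 0.957), although they were detected on 11 and 17 of the 18 arrays. Their positions in the transcript were not given in the sources used here, and which transcripts each probe reads was not tested.

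The 250 bases before the annotated start of Sema5a are shown because the gene had the largest FGF2 rise of the 45 in PA6, beside those of Efnb2, which rose with FGF2 in PA6 only. Both windows end at the outermost edge of the gene in RefSeq, on GRCm38.p6, and are written 5′ to 3′ on the gene's strand. Sema5a lies at chr15:32244563-32244812 on the plus strand and Efnb2 at chr8:8661243-8661492 on the minus strand. Capitals mark GGGCGG, the SP1 motif, on either strand.
Sema5a: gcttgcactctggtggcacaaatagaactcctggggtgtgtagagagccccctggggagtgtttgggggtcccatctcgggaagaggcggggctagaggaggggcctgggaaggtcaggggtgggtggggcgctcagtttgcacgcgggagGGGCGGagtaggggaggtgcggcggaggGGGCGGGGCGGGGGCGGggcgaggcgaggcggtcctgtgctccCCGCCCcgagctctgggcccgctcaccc
Efnb2: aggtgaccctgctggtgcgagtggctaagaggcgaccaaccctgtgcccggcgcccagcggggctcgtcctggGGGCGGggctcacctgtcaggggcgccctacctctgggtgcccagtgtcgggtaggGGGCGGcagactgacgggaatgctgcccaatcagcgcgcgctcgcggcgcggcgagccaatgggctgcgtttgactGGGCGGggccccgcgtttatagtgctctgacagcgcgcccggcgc
The Sema5a window held 5 SP1 matches, 3 of them in 1 run, and none of the other motifs searched on either strand. The Efnb2 window held 3 SP1 matches, 1 TATA box match (TATAAA, read on the opposite strand) and 2 SMAD1 matches (GGCGCC). Neither held the ETS motif CCGGAA or the AP-1 motif TGANTCA. Of 32851 promoter windows 32.7% held the SP1 motif, 12.4% TATAAA, 9.59% GGCGCC, 12% CCGGAA and 6.75% TGANTCA. A match describes letters and is not a binding site. Windows were found for 41 of the 45 genes, and those of EPHA1, EPHA7, ROBO1 and SEMA7A lay partly or wholly inside the gene's annotated span and are not shown.

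The secreted class 3 semaphorins, which repel axons and act on vessels through neuropilins and plexins, were higher in the stroma. SEMA3F read 9.66, 10.13 and 9.80 in ES/PA6 -GFs and 12.74, 12.79 and 12.62 in PA6 -GFs, a difference of -2.86 ± 0.162 (adjusted p = 2.43e-10). SEMA3A read 8.02, 8.40 and 8.30 against 10.57, 10.52 and 10.25, a difference of -2.21 ± 0.261 (adjusted p = 1.43e-06). Neither pair of groups overlapped. SEMA3B read 5.89, 5.58 and 6.22 against 9.07, 8.34 and 8.74, a difference of -2.82 ± 0.319 (adjusted p = 8.41e-07). SEMA3E, which binds plexin D1 directly, read 5.83, 5.15 and 5.54 (0 of 3 detected) against 7.13, 6.89 and 5.72. It was at least 1.62-fold lower (adjusted p = 0.00968), although the groups overlapped, and the call was lost without ES/PA6 -GFs replicate 2 (-0.89), PA6 -GFs replicate 1 (-0.80) or PA6 -GFs replicate 2 (-0.91). Other probes moved the same way: -2.72 and -2.53 for SEMA3F, and less far, -1.03 for SEMA3A and -1.18 and -2.07 for SEMA3B. Of the stromal markers 4 of 5 fell in the same comparison, and how far the share of stromal RNA sets these values was not tested.

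FGF2 lowered no class 3 semaphorin past both thresholds at its brightest probe. In PA6 SEMA3A read 9.94, 9.18 and 9.36 with FGF2, a change of -0.95 ± 0.261 (adjusted p = 0.0213), and SEMA3F 12.01, 11.45 and 11.97, a change of -0.90 ± 0.162 (adjusted p = 0.00109). Both passed the p threshold and missed the fold threshold by little: without PA6 FGF2 replicate 1 both were called, SEMA3A at -1.17, and SEMA3A was also called without PA6 -GFs replicate 3 (-1.05). Another SEMA3F probe, detected on 8 arrays, changed by -1.31 (adjusted p = 0.0096). With BMP4 in PA6, SEMA3B read 7.40, 7.55 and 8.04, below all 3 -GFs arrays, a change of -1.06 ± 0.319 (adjusted p = 0.11) that was called once the replicate number was a block within each culture type (adjusted p = 0.0368). SEMA3E was lower with FGF2 than with BMP4 in PA6, with 6.61, 5.58 and 6.07 against 7.00, 7.18 and 7.11 and a difference of -1.01 ± 0.333 (adjusted p = 0.0525). That call was lost without PA6 FGF2 replicate 2 (-0.76, adjusted p = 0.224) or 3 (adjusted p = 0.109), or PA6 BMP4 replicate 2 (-0.97, adjusted p = 0.129) or 3 (adjusted p = 0.124).

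The transmembrane class 4 semaphorins SEMA4A and SEMA4B went the other way from class 3 between the culture types. SEMA4A read 8.74, 8.59 and 9.02 in ES/PA6 -GFs and 6.47, 6.17 and 6.75 in PA6 -GFs, higher by 2.32 ± 0.179 (adjusted p = 1.02e-08). It read 9.87, 9.75 and 9.42 with FGF2 in ES/PA6, a change of 0.89 ± 0.179 (adjusted p = 0.00605) whose groups did not overlap and which stayed under the fold threshold. It passed without ES/PA6 -GFs replicate 3 (1.01) or ES/PA6 FGF2 replicate 3 (1.03). SEMA4B, SEMA5B and SEMA7A were the other semaphorins called higher in ES/PA6, and SEMA6B joined them without ES/PA6 -GFs replicate 1 (1.11) or PA6 -GFs replicate 2 (1.07). SEMA4D, a ligand of plexin B1, lay near the detection limit in every group, from 5.31 to 6.86, and passed no test. SEMA6A, a transmembrane semaphorin that binds A-type plexins, read 6.62, 7.05 and 6.82 in ES/PA6 -GFs and 5.52, 6.41 and 6.18 with FGF2 (-0.80 ± 0.203, adjusted p = 0.026). In PA6 it was detected on 0 of 3 -GFs arrays (5.90, 5.89 and 6.06) and on 1 of 3 with FGF2 (6.34, 6.22 and 6.21). The fitted difference between these effects, -1.10 ± 0.287, was called (adjusted p = 0.0223). Without ES/PA6 -GFs replicate 2 it was -0.99 and without ES/PA6 FGF2 replicate 1 it was -0.85, both under the fold threshold.

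All 4 plexins measured were lower in the co-culture and 2 of them were called, where 19.5% of all genes were called lower. A positive difference was found for 7458 of all 16446 genes. PLXNB2 read 9.42, 10.02 and 9.45 in ES/PA6 -GFs and 11.60, 11.38 and 11.43 in PA6 -GFs, a difference of -1.84 ± 0.184 (adjusted p = 2.19e-07). PLXND1, a receptor of endothelial cells for SEMA3E, read 9.18, 9.90 and 9.41 against 10.79, 11.08 and 10.70, a difference of -1.36 ± 0.2 (adjusted p = 1.56e-05). The groups did not overlap for either receptor. PLXNB1 and PLXNA2 differed by -0.74 ± 0.251 (adjusted p = 0.0161) and -0.65 ± 0.289 (adjusted p = 0.0567). No plexin was called for FGF2 (3.34% of all genes in ES/PA6, 5.27% in PA6) or BMP4 (0.76% and 1.41%) in either culture type. The plexin changes there ran from -0.55 to 0.54. For PLXNB2 the FGF2 effect in ES/PA6 minus that in PA6 was 0.92 ± 0.261 (adjusted p = 0.0348), under the fold threshold, and it was called without ES/PA6 -GFs replicate 2 (1.11) or PA6 FGF2 replicate 3 (1.05).

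**Figure D4:**
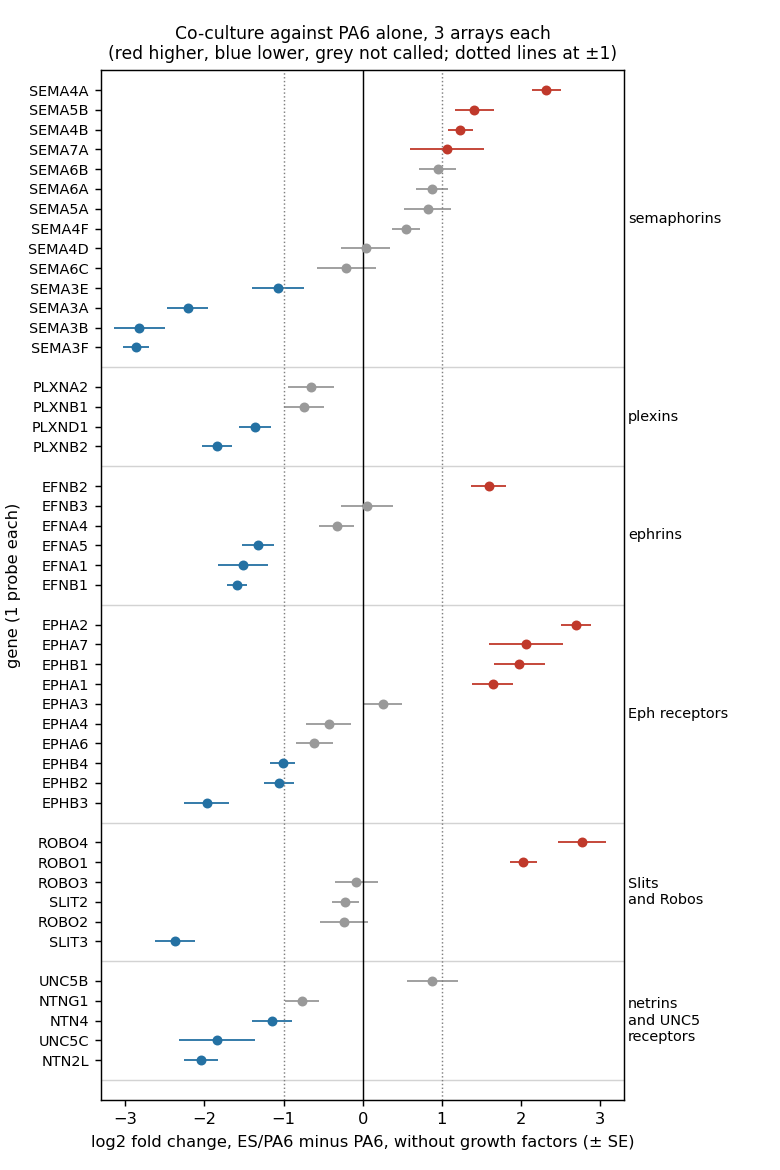
Points give the log2 fold change of ES/PA6 over PA6 without growth factors for 45 guidance genes grouped by family, with SE bars; 11 called higher are red, 16 called lower are blue, the rest are grey, and dotted lines mark a change of 1 either way. The class 3 semaphorins and all 4 plexins lie to the left, and ROBO4, EPHA2 and SEMA4A lie furthest to the right.

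EFNB2, which marks arterial endothelium and binds EphB receptors, differed between the culture types in its FGF2 effect. In PA6 it read 5.12, 5.79 and 5.37 without growth factors and 5.94, 5.51 and 5.56 with BMP4 (0 of 3 detected in either), but 7.36, 6.96 and 7.32 with FGF2. The FGF2 arrays were the only PA6 arrays on which it was detected. EFNB2 was at least 1.89-fold higher with FGF2 than without growth factors (adjusted p = 2.89e-05) and at least 2.03-fold higher than with BMP4 (adjusted p = 0.000103). In ES/PA6 it read 7.26, 7.11 and 6.67 without growth factors, 6.35, 6.25 and 6.98 with FGF2 and 6.39, 6.45 and 6.35 with BMP4. The FGF2 arrays overlapped the untreated ones and the BMP4 arrays lay just below them, with changes of -0.49 ± 0.216 for FGF2 (adjusted p = 0.244) and -0.62 ± 0.216 for BMP4 (adjusted p = 0.248). The fitted FGF2 effect in ES/PA6 minus that in PA6 was -2.27 ± 0.305 (adjusted p = 0.000215), which is not an exact size, since the PA6 -GFs side was not detected. Without growth factors EFNB2 was at least 1.64-fold higher in ES/PA6 (adjusted p = 6.66e-06).

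None of the 4 EphB receptors tested was called with FGF2 in PA6, where 5.27% of all genes were. EPHB4, its partner in veins, read 11.92, 12.05 and 12.13 in PA6 -GFs, 11.93, 11.66 and 11.78 with FGF2 and 11.89, 12.25 and 11.92 with BMP4, and neither change was called (-0.24 ± 0.16, adjusted p = 0.38, and -0.01 ± 0.16, adjusted p = 0.997). It was lower in ES/PA6 -GFs (10.78, 11.34 and 10.94), a difference of -1.01 ± 0.16 (adjusted p = 3.36e-05) just past the fold threshold. That difference went to -0.89, -0.97 or -0.96 without ES/PA6 -GFs replicate 1, ES/PA6 -GFs replicate 3 or PA6 -GFs replicate 3. EPHB2 was lower there, by a difference of -1.06 ± 0.192 (adjusted p = 0.000134), which became -0.97, under the fold threshold, without ES/PA6 -GFs replicate 1. EPHB3 read 5.49, 5.63 and 5.79 in ES/PA6 -GFs (0 of 3 detected) and 7.65, 7.63 and 7.56 in PA6 -GFs, at least 3.32-fold lower in the co-culture (adjusted p = 1.3e-05). EPHB1 alone among the EphB receptors was higher in ES/PA6, with 6.82, 7.46 and 6.43 against 4.86, 4.85 and 5.07 (0 of 3 detected), at least 1.52-fold (adjusted p = 3.68e-05). With BMP4 in ES/PA6 it read 5.47, 5.79 and 6.19, a change of -1.09 ± 0.317 (adjusted p = 0.14) that was called once the replicate number was a block within each culture type (adjusted p = 0.0497). It was also called without ES/PA6 -GFs replicate 3 (-1.32, adjusted p = 0.0975), and EPHB1 was called higher with FGF2 than with BMP4 without ES/PA6 FGF2 replicate 1 (1.12, adjusted p = 0.0169).

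EPHA7, an Eph receptor of the developing nervous system, fell with BMP4 in ES/PA6 and rose with FGF2 in PA6. In ES/PA6 it read 7.04, 8.17 and 8.78 without growth factors, 6.66, 7.33 and 8.76 with FGF2 and 6.07, 6.11 and 6.23 with BMP4. The BMP4 arrays lay below all others, while the remaining groups overlapped and were widely spread. The BMP4 change was -1.86 ± 0.467 (adjusted p = 0.0815), with differences of -0.96, -2.06 and -2.55 within replicates 1, 2 and 3, and it was higher with FGF2 than with BMP4 by 1.45 ± 0.467 (adjusted p = 0.0954). Both calls lay near the threshold. The first was lost without any 1 of 5 arrays, ES/PA6 -GFs replicates 2 and 3 and ES/PA6 BMP4 replicates 1, 2 and 3 (adjusted p from 0.128 to 0.24), and when ES/PA6 arrays were fitted alone (0.333). The second was lost without ES/PA6 FGF2 replicate 2 (0.138) or 3 (0.33), or any BMP4 replicate (0.156 to 0.213).

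In PA6 EPHA7 read 6.40, 5.99 and 5.43 without growth factors, 7.43, 7.70 and 7.69 with FGF2 and 7.28, 7.54 and 6.50 with BMP4. The -GFs arrays were the lowest of the 9. FGF2 raised it by 1.67 ± 0.467 (adjusted p = 0.0237), and the BMP4 change was 1.17 ± 0.467 (adjusted p = 0.274), called only in a fit of the PA6 arrays alone (0.0857) or with replicate blocks within each culture type (0.0644). The effects in ES/PA6 minus those in PA6 were -2.08 ± 0.66 for FGF2 (adjusted p = 0.0578) and -3.02 ± 0.66 for BMP4 (adjusted p = 0.0696). The FGF2 difference was lost without ES/PA6 -GFs replicate 2 or 3, ES/PA6 FGF2 replicate 1 or 2, PA6 -GFs replicate 3 or PA6 FGF2 replicate 2 (adjusted p from 0.109 to 0.142), and the BMP4 difference without ES/PA6 -GFs replicate 2 or 3, any ES/PA6 BMP4 replicate, PA6 -GFs replicate 2 or 3 or PA6 BMP4 replicate 1 or 2 (0.116 to 0.166). Without growth factors EPHA7 was higher in ES/PA6 by 2.06 ± 0.467 (adjusted p = 0.000979).

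The other 3 EPHA7 probes were detected on 3 to 5 arrays and moved less. With BMP4 in ES/PA6 they gave -0.83, -0.73 and -0.88, and with FGF2 in PA6 0.88, 1.13 and 0.20. Their BMP4 effects in ES/PA6 minus PA6 were -1.03, -1.01 and -0.97 (adjusted p from 0.449 to 0.631). Neural markers moved beside EPHA7 in the co-culture, where 1 of 3, ZIC1, was called lower with BMP4. NES (-1.82, adjusted p = 0.194) and HES5 (-1.85, adjusted p = 0.341) were not called. ZIC1 read 6.52, 8.29 and 10.23 on the ES/PA6 -GFs arrays, 6.15, 8.39 and 9.40 with FGF2 and 5.04, 5.06 and 5.26 with BMP4 (0 of 3 detected), low and high on the same replicates as EPHA7. EDNRB, the neural crest marker tested, read 8.15, 10.01 and 10.84 without growth factors and 5.01, 5.46 and 6.41 with BMP4. The part of these cells in the EPHA7 values was not tested. On the PA6 arrays, where EPHA7 rose with FGF2, none of the 3 neural markers was detected on any array.

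EPHA1 fell with FGF2 in ES/PA6. It read 7.24, 7.28 and 7.50 without growth factors, 5.78, 5.33 and 5.96 with FGF2 and 6.65, 7.05 and 7.18 with BMP4. The FGF2 arrays lay below both other groups, and 1 of them was detected. The change was -1.65 ± 0.256 (adjusted p = 0.000837) against -GFs and -1.27 ± 0.256 (adjusted p = 0.00783) against BMP4. In PA6 the -GFs arrays read 6.39, 5.50 and 5.23 (1 of 3 detected) and the FGF2 arrays 5.50, 5.59 and 6.10 (0 of 3), which overlapped. The fitted FGF2 effects differed by -1.67 ± 0.362 (adjusted p = 0.0077), with a PA6 side at or under the detection limit. Without growth factors EPHA1 was higher in ES/PA6 by 1.64 ± 0.256 (adjusted p = 2.97e-05), and with FGF2 the ES/PA6 mean was 5.69 and the PA6 mean 5.73.

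EPHA2, a receptor found on early embryonic cells, was not detected in the stroma and was called for neither factor in the co-culture. It read 8.40, 7.91 and 8.43 in ES/PA6 -GFs and was detected on 0 of 9 PA6 arrays. It was at least 3.85-fold higher in ES/PA6 -GFs than in PA6 -GFs (adjusted p = 3.82e-09). With FGF2 and BMP4 its changes in ES/PA6 were 0.01 ± 0.191 (adjusted p = 0.987) and 0.43 ± 0.191 (adjusted p = 0.421). EFNA1, its ligand, read 6.52, 5.49 and 6.92 in ES/PA6 -GFs and 8.47, 7.62 and 7.36 in PA6 -GFs, a difference of -1.51 ± 0.32 (adjusted p = 0.000555), and EFNA5 and EFNB1 were also lower. EFNB1 read 10.93, 10.94 and 11.03 against 12.43, 12.55 and 12.67, a difference of -1.59 ± 0.128 (adjusted p = 1.69e-08). EFNA5 in PA6 read 12.58, 12.47 and 12.58 without growth factors and 11.81, 11.47 and 11.94 with BMP4, a change of -0.81 ± 0.202 (adjusted p = 0.0468) that passed the p threshold but not the fold threshold. EPHA4, a receptor for A- and B-type ephrins, was near the limit throughout, from 5.41 to 7.02, and passed no test.

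SLIT3 and SLIT2, ligands of the Robos, behaved differently. SLIT3 read 6.12, 7.11 and 6.36 in ES/PA6 -GFs and 8.78, 9.22 and 8.71 in PA6 -GFs, a difference of -2.37 ± 0.253 (adjusted p = 4.44e-07). SLIT2 read 11.82, 12.28 and 12.05 against 12.28, 12.29 and 12.23, a difference of -0.22 ± 0.173 (adjusted p = 0.281). The SLIT3 groups were apart while those of SLIT2 overlapped. In PA6, SLIT3 was 7.50, 8.11 and 8.29 with FGF2 and 9.57, 9.55 and 9.53 with BMP4, a difference of -1.58 ± 0.253 (adjusted p = 0.000355), and the -GFs arrays lay between. Against -GFs the FGF2 change was -0.93 ± 0.253 (adjusted p = 0.0197) and the BMP4 change 0.65 ± 0.253 (adjusted p = 0.259), neither called. The FGF2 change passed the fold threshold without PA6 -GFs replicate 3 (-1.03), PA6 FGF2 replicate 2 (-1.01) or PA6 FGF2 replicate 3 (-1.09). The FGF2 effect in ES/PA6 was above that in PA6 by 1.08 ± 0.358 (adjusted p = 0.0691). That difference was lost without ES/PA6 -GFs replicate 1 (0.87) or 3 (0.99), ES/PA6 FGF2 replicate 2 (0.89), PA6 -GFs replicate 2 (0.92) or PA6 FGF2 replicate 1 (0.85), as log2 values.

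ROBO1, a Slit receptor of axons, was high in the co-culture and rose with FGF2 in PA6. It read 10.11, 10.19 and 9.76 in ES/PA6 -GFs and 7.96, 8.16 and 7.85 in PA6 -GFs, higher by 2.03 ± 0.171 (adjusted p = 2.87e-08). In PA6 it read 9.21, 9.65 and 9.34 with FGF2 and 8.39, 8.75 and 9.05 with BMP4. The 3 PA6 groups did not overlap. FGF2 raised it by 1.41 ± 0.171 (adjusted p = 2.99e-05), while the BMP4 change, 0.74 ± 0.171 (adjusted p = 0.03), stayed under the fold threshold. In ES/PA6 the FGF2 arrays read 10.50, 10.55 and 10.62, a change of 0.53 ± 0.171 (adjusted p = 0.083). The difference between the FGF2 effects was -0.88 ± 0.242 (adjusted p = 0.0302), under the fold threshold, and -1.01 without ES/PA6 -GFs replicate 3. That between the BMP4 effects was -0.95 ± 0.242 (adjusted p = 0.125), and it was called without ES/PA6 -GFs replicate 3 (-1.08) or PA6 BMP4 replicate 1 (-1.12).

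ROBO4, the Robo of endothelial cells, was detected on all ES/PA6 arrays and on 0 of 9 PA6 arrays. It read 8.52, 6.95 and 8.04 in ES/PA6 -GFs, 8.76, 8.24 and 8.56 with FGF2 and 8.69, 8.01 and 9.01 with BMP4. It was at least 2.9-fold higher in ES/PA6 -GFs than in PA6 -GFs (adjusted p = 5.72e-07). The treated arrays overlapped the untreated ones, with changes of 0.68 ± 0.302 for FGF2 (adjusted p = 0.24) and 0.74 ± 0.302 for BMP4 (adjusted p = 0.361). Within replicates 1, 2 and 3 the differences were 0.24, 1.29 and 0.53 for FGF2 and 0.17, 1.06 and 0.97 for BMP4, all of them positive. Without ES/PA6 -GFs replicate 1 these became 1.02 (adjusted p = 0.0475) and 1.08 (adjusted p = 0.0992), both past the thresholds. A second ROBO4 probe, detected on 4 arrays, differed between the culture types by -0.02 (adjusted p = 0.915). Of 4 endothelial markers tested, PECAM1, which pluripotent cells also express, was the 1 called in the same comparison (9.56, 8.11 and 9.29 in ES/PA6 -GFs, 0 of 3 detected in PA6 -GFs). CDH5 was detected on 1 and 0 of 3 arrays. Summed over the 4, they ran from 711 to 1310 in ES/PA6 -GFs and from 416 to 507 in PA6 -GFs. The 4 pluripotent markers tested were all called higher in ES/PA6 -GFs than in PA6 -GFs. Within ES/PA6 -GFs all 4 were lowest on replicate 2, as ROBO4 and PECAM1 were, with NANOG at 12.84, 11.83 and 12.74. The part of either marker list in the ROBO4 values was not tested.

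NTN4 and NTN2L were lower in the co-culture. NTN4, a netrin of basement membranes, was detected on 0 of 9 ES/PA6 arrays. In PA6 it read 7.06, 6.01 and 5.84 without growth factors, 5.31, 5.74 and 5.58 with FGF2 (0 of 3 detected) and 7.54, 6.81 and 7.37 with BMP4. The FGF2 arrays lay below both other groups. NTN4 was at least 1.97-fold lower with FGF2 than with BMP4 (adjusted p = 0.000175). Against -GFs its FGF2 and BMP4 changes were not called (adjusted p = 0.0548 and 0.0651). Without PA6 -GFs replicate 1, the highest of its group, the BMP4 change became 1.31 (adjusted p = 0.00302) and was called, as it was without PA6 BMP4 replicate 2 (1.15, adjusted p = 0.0495). In -GFs it was at least 1.34-fold lower in ES/PA6 (adjusted p = 0.000686), a call lost without PA6 -GFs replicate 1 (-0.77). NTN2L, now named Ntn3, read 8.29, 9.10 and 8.97 in ES/PA6 -GFs against 10.81, 10.75 and 10.91, a difference of -2.04 ± 0.213 (adjusted p = 3.48e-07). Between the culture types the FGF2 effect on NTN4 differed by 1.01 (adjusted p = 0.0874) without PA6 -GFs replicate 3 and the BMP4 effect by -1.17 (adjusted p = 0.0898) without PA6 -GFs replicate 1, and neither was called with all arrays. Adipocyte markers moved beside NTN4, SLIT3 and SEMA3E in PA6. Summed over 3 genes they ran from 7990 to 10900 without growth factors, from 1360 to 1650 with FGF2 and from 21300 to 51200 with BMP4, and 3 of 3 were lower with FGF2 than with BMP4. Against -GFs, 2 of 3 fell with FGF2, in the comparison in which SEMA5A, EFNB2, EPHA7, SEMA7A and ROBO1 rose. In ES/PA6 the adipocyte markers also moved, from 309 to 772 with FGF2 and from 4320 to 24300 with BMP4. SLIT3 had a mean of 6.68 in both of those groups. SEMA3E was detected there on 1 of 3 and 0 of 3 arrays, and NTN4 on none. The part of these markers in the values of all these genes was not tested.

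The UNC5 receptors, which turn netrin into a repellent, split between the culture types. UNC5C read 6.92, 8.12 and 9.12 in ES/PA6 -GFs and 10.03, 9.78 and 9.88 in PA6 -GFs, a difference of -1.84 ± 0.478 (adjusted p = 0.00279). Its order over replicates was that of EPHA7 in ES/PA6 -GFs but not in PA6 -GFs. UNC5B, a netrin receptor of endothelial tip cells, read 10.83, 10.54 and 10.25 against 10.00, 9.81 and 9.17, a difference of 0.88 ± 0.32 (adjusted p = 0.0229) under the fold threshold. It was called without ES/PA6 -GFs replicate 3 (1.03) or PA6 -GFs replicate 1 (1.05). Neither gene was called for FGF2 or BMP4 against -GFs in either culture type. UNC5C was called lower with FGF2 in ES/PA6 without -GFs replicate 1 (-1.37, adjusted p = 0.0882). In PA6 UNC5C read 9.01, 8.24 and 8.97 with FGF2 and 8.78, 8.91 and 9.23 with BMP4, below all 3 -GFs arrays. The FGF2 change there, -1.16, was called in a fit of the PA6 arrays alone (adjusted p = 0.00526). It was also called with replicate blocks within each culture type (0.023) or shared by both (0.0782), and with median scaling (-1.25, adjusted p = 0.086).

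Of 59 further genes of these pathways (co-receptors, scaffolds and effectors), 42 were tested. Between the culture types 9 were higher and 12 lower in ES/PA6 (50% of the 42, against 39% of all genes), among them the class 3 co-receptor NRP1 (-1.93 ± 0.214, adjusted p = 6.91e-07). With FGF2 in ES/PA6, 1 rose and 1 fell (4.76%, against 3.34% of all genes). The riser was DCC, the netrin receptor, with 6.07, 5.57 and 5.77 without growth factors and 7.48, 7.48 and 6.04 with FGF2 (1.20 ± 0.308, adjusted p = 0.0278), groups that overlapped. CRMP1, an effector of semaphorin signals, fell by 1.12 ± 0.188 (adjusted p = 0.00155). With BMP4 in ES/PA6, where 0.76% of all genes were called, 0 rose and 2 fell (4.76%), RGMA, a ligand of the DCC relative neogenin (-1.20 ± 0.186, adjusted p = 0.00628), and NRCAM, a cell adhesion molecule (-1.17 ± 0.206, adjusted p = 0.0139).

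In PA6, FGF2 raised 3 of the 42 and lowered 4 (16.7%, against 5.27% of all genes). NRP1 fell by 1.36 ± 0.214 (adjusted p = 0.000361), with 13.85, 13.89 and 13.65 without growth factors and 12.78, 11.99 and 12.54 with FGF2. ITGA1, MET and SRGAP3, an effector of Robo signals, fell too. TIAM1, a Rac activator downstream of ephrins, rose from 6.82, 7.17 and 6.84 to 9.79, 10.17 and 10.00, by 3.04 ± 0.16 (adjusted p = 7.4e-09). DPYSL3 and FLRT2, a ligand of UNC5 receptors, were the other genes that rose. With BMP4 in PA6, where 2 of the 42 (4.76%) and 1.41% of all genes were called, TIAM1 rose by 1.44 ± 0.16 (adjusted p = 0.00015) and FLRT2 fell by 1.11 ± 0.222 (adjusted p = 0.0129). The FGF2 effects differed between the culture types for 6 of the 42 (14.3%, against 7.39% of all genes), of which 5 were lower in ES/PA6, TIAM1 at -2.55 ± 0.227 (adjusted p = 4.82e-06), and the BMP4 effects for TIAM1 alone (2.38%, against 0.559% of all genes).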

How the data were processed

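Expression was measured on Illumina MouseWG-6 v2.0 arrays. The authors deposited 1 non-normalized intensity value per probe and array with its detection p-value; GenomeStudio 2011.01 is named in the submitters' processing notes, and 5 stray lines after the table were left out. Intensities were background corrected and quantile normalized by neqc (offset 16, control moments inferred from detection p; limma 3.58.1, R 4.3.3), where the study's methods name a cubic spline. Probes with detection p under 0.05 on at least 3 of 18 arrays were kept, and the probe with the largest mean stood for a gene. Where a gene was detected on 0 of 3 arrays of a group, its bound sets the brighter group's mean against, per dim array, the higher of the lowest detected signal and the probe's own.

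Groups, replicate numbers and doses come from the labels; the methods name a lower BMP4 dose for slides. A single limma fit of 6 group means on all 18 arrays gave 9 comparisons over 16446 genes, with Benjamini-Hochberg adjusted p. The members, the pathway and marker lists, and the naming rule were chosen with earlier results of these data known: members called in a growth factor, FGF2 against BMP4 or effect comparison were named, with the 6 largest rises and falls between culture types and a set list of well-known members. Marker lists covered pluripotent, stromal, neural, neural crest, endothelial, mesoderm, adipocyte, trophoblast and epithelial, and extraembryonic endoderm cells. Gene names are the array's; all 45 matched RefSeq on GRCm38.p6. The script was tested on simulated data.

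The labels say that each biological replicate held 1 well per condition, without naming separate thaws or days, so p-values measure the spread between these wells. Residuals of same-numbered arrays correlated from 0.325 to 0.521 within ES/PA6, from 0.0628 to 0.164 within PA6 and from -0.0248 to 0.175 across. The numbers therefore pair the co-culture arrays. The main fit leaves this pairing out, so the spread behind its p-values includes differences between replicate numbers. No arrays held identical values (0 pairs). The number of arrays limits the precision. Alternatives were no background correction, median scaling, other detection filters, every probe as its own row, 1 culture type alone, replicate blocks, a stricter p and leaving out each array.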

Additional observations from a re-analysis of the deposited data

Results flagged for a closer look

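The effect of a growth factor differed between the culture types, by the interaction contrast, in 7 cases. For FGF2 the effect in ES/PA6 minus the effect in PA6 was -2.27 for EFNB2, -2.08 for EPHA7, -1.67 for EPHA1, -1.43 for SEMA5A, -1.10 for SEMA6A and 1.08 for SLIT3 (log2 scale). For BMP4 it was -3.02 for EPHA7. EFNB2, SEMA5A and SEMA6A were detected on 0 of 3 PA6 -GFs arrays and EPHA1 on 0 of 3 PA6 FGF2 arrays, so the sizes given for these 4 genes are fitted values and not exact. The other EPHA7 probes gave smaller differences, and the 2 SEMA5A probes without an FGF2 rise gave -0.01 and -0.57 for the FGF2 contrast.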

How the results depend on the processing

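Of the 53 calls of guidance genes over the 9 comparisons, 27 were kept in every alternative run and 26 were lost in at least 1; the sign changed in 0. Quantile normalization without background correction lost 23 calls, all of them at changes under the fold threshold there (the cause was not tested). Only SEMA7A between culture types (adjusted p = 0.123) and EPHA7 for FGF2 against BMP4 in ES/PA6 (0.111) also missed the p threshold. This setting left 2 for FGF2 against BMP4 in ES/PA6 and 2 each for FGF2 in PA6, FGF2 against BMP4 in PA6 and the FGF2 effects compared between culture types. Median scaling gave 8 for FGF2 in PA6. BMP4 in ES/PA6 gave 0 with no filter on detection, 0 from the ES/PA6 arrays alone and 0 at an adjusted p under 0.05, and the BMP4 effects compared gave 0 without a filter and 0 at 0.05. BMP4 in PA6 gave 1 with detection on all 3 arrays of a group and 1 from the PA6 arrays alone.

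A replicate block fitted separately for each culture type gave 2 for BMP4 in ES/PA6, 2 for BMP4 in PA6 and 2 for the BMP4 effects compared, where SEMA5A was added (-1.11, adjusted p = 0.0586); it lost 0 calls. A replicate block shared by both culture types, chosen after seeing the data because the first is confounded with culture type in the culture comparison, gave 27 there, 2 for BMP4 in ES/PA6 and 1 for BMP4 in PA6. Leaving out 1 array gave 25 to 28 calls between culture types, 3 to 5 for FGF2, 0 to 2 for BMP4 and 3 to 5 for FGF2 against BMP4 in ES/PA6, 5 to 7, 0 to 1 and 4 to 6 in PA6, and 4 to 7 and 0 to 2 for the FGF2 and BMP4 effects compared. The count for FGF2 in ES/PA6 reached 5 without ES/PA6 -GFs replicate 1. The single call for BMP4 in ES/PA6 went to 2 without that array and to 0 without -GFs replicate 2 or any BMP4 replicate, and BMP4 in PA6 reached 1 without PA6 -GFs replicate 1 or PA6 BMP4 replicate 2. The slide alternative was not run, since labels and header give no slide. With 3 arrays a group, calls near either threshold could be lost to a single array.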

Other observations

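Marker lists of other cell types also moved with the treatments in the co-culture. Adipocyte markers (3 genes, summed on the linear scale) ran from 547 to 3080 in ES/PA6 -GFs, from 309 to 772 with FGF2 and from 4320 to 24300 with BMP4. Of them 2 of 3 were called higher with BMP4 than in -GFs, and 3 of 3 were lower with FGF2 than with BMP4. Trophoblast and epithelial markers (3 genes, summed on the linear scale) ran from 1090 to 1980 in ES/PA6 -GFs and from 2300 to 5050 with BMP4, and 2 of 3 were called higher. Mesoderm was represented by T alone, at 32 to 65.4 in ES/PA6 -GFs and 53.6 to 245 with BMP4, not called. Extraembryonic endoderm markers (2 genes) summed to 685 to 1630 over ES/PA6 and 3880 to 8290 over PA6, with 1 of 2 detected on all arrays. That gene was GATA6, with means of 9.83 in ES/PA6 -GFs and 12.31 in PA6 -GFs. SOX17 went the other way, detected on 0 of 3 arrays of each PA6 group and on 1 or 2 of 3 in each ES/PA6 group.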
